A study of Mus musculus with 13 samples.

Results

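The vancomycin effect shared by the colon and the ileum is described here as a set of genes with the same sign of change in both tissues. Membership does not require that the change in each tissue pass a test of its own. A gene entered the set when the mean of its colon change and its ileum change passed an adjusted p of 0.05 and both changes had the same sign. Of 19572 probe sets with 1 gene symbol, 132 passed for the mean change, which is 0.674% of those tested. Of these, 114 had the same sign in both tissues (0.582%), and they are 114 different genes. In 85 of them, called falls, the mean change was negative (0.434%), and in 29, called rises, it was positive (0.148%). The remaining 18 had opposite signs and are not members. Same signs alone are common, since 11772 of the 19572 probe sets (60.1%) had them, and only the members that also passed the test are described below.

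The samples came from female FVB mice, all of which bore a mammary carcinoma expressing human HER2, whatever their treatment. In the vancomycin groups, the drinking water held 200 mg of the antibiotic per litre from the age of 4 weeks. The experiment ended at 9 weeks, at a tumour volume of 150 mm3, and the labels do not say whether those weeks are age or time under treatment. The labels give no tumour-free mice, and they do not state that each array of a group is from its own mouse. If some are not, the p-values reflect only a spread that may be technical. RNA from washed, frozen tissue was measured on 13 one-colour arrays, with 4 of colon without antibiotic (replicates 1, 2, 3 and 5), 3 of colon under vancomycin (11, 13 and 14), 3 of ileum without antibiotic (1, 2 and 3) and 3 of ileum under vancomycin (11, 13 and 14). Precision is limited by this small number of arrays. All levels below are deposited log2 values and all changes are vancomycin minus no antibiotic in log2 units, with the standard error of the fit.

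Vancomycin is a glycopeptide antibiotic that blocks cell wall synthesis in Gram-positive bacteria. It is poorly absorbed from the gut, so that after oral dosing it acts mainly on the bacteria of the lumen. The intestinal epithelium reads those bacteria through pattern recognition receptors and through cytokines of nearby immune cells, among them interferon gamma, which induces immunity-related GTPases, the immunoproteasome and MHC class II. Plasma cells of the lamina propria add secreted IgA, which the epithelium carries into the lumen. In bulk tissue, fewer cells of a type and less RNA per cell cannot be told apart.

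The arrays carried the tissue their labels give. Car1, Aqp8 and Hoxb13, which mark the colon, lay between 11.55 and 17.42 in every colon and between 5.09 and 8.38 in every ileum, while Fabp6, Slc10a2, Apoa1, Sis and Defa24 were higher in every ileum than in any colon. Array medians ran from 7.98 to 8.14. Vancomycin ileum replicate 11 stood apart, with a mean correlation of 0.977 to its group, against 0.983 to 0.995 for the other 12 arrays. In it the mean level of 14 B cell and follicle genes was 10.82, against 7.80 to 8.66 in the other ilea, and that of 14 smooth muscle genes was 14.49, against 12.85 to 13.48. Without this array 194 genes had a shared change, 65 higher and 129 lower, and 99 of the 114 members were among them.

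**Figure D1:**
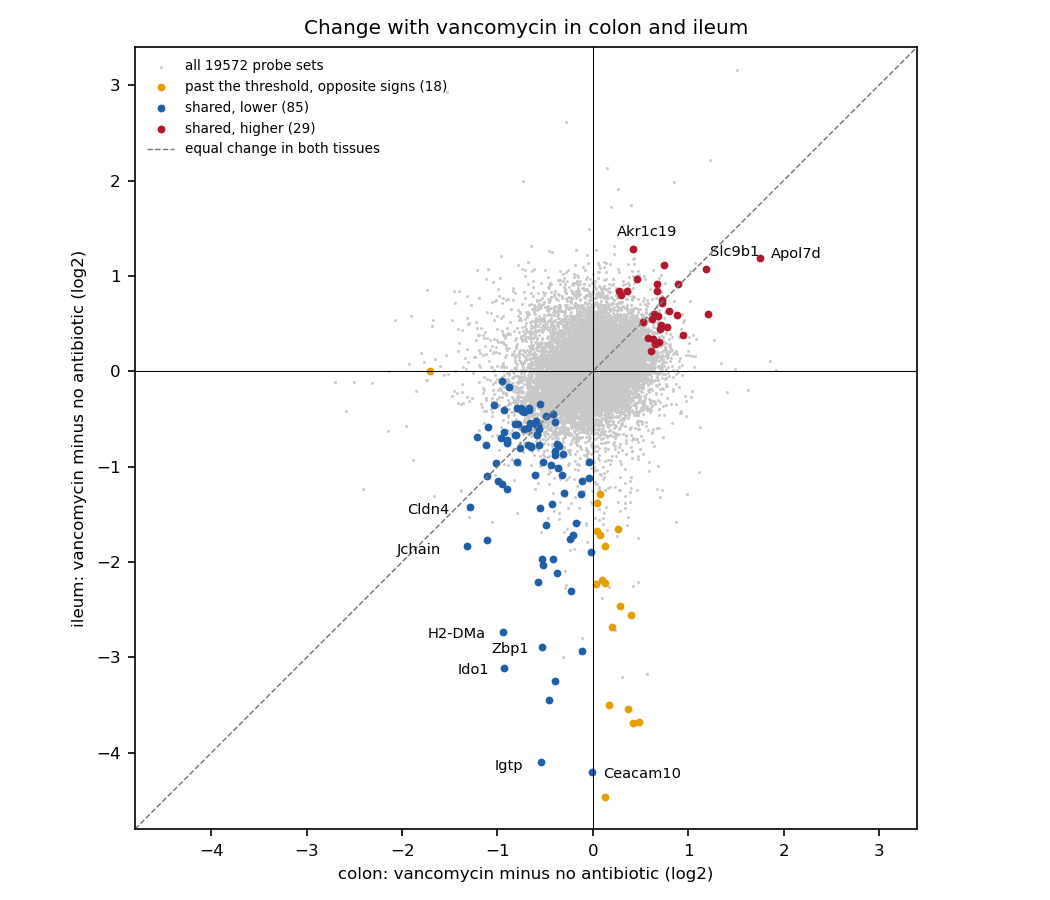
The change with vancomycin in the colon (horizontal axis, log2) against that in the ileum (vertical axis, log2) for 19572 probe sets in grey, with the 85 shared falls in blue, the 29 shared rises in red and the 18 genes of opposite sign in orange. The rises lie around the dashed line of equal change, and the falls reach from that line down to genes near 0 in the colon and under -4 in the ileum.

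The size of the change often differed between the tissues. In 65 of the 114 genes the smaller change was at least 50 percent of the larger one, and in 7 genes, all lower, it was under 10 percent of it. The change was larger in the ileum in 64 genes and in the colon in 50. The median of the 85 falls was -0.59 in the colon and -0.84 in the ileum, and that of the 29 rises was 0.68 in the colon and 0.60 in the ileum, against medians of 0.02 in both tissues over all probe sets. A direct test of the tissue difference passed for 37 of all probe sets (0.189%), among them 7 of the members, which were Igtp, Ceacam10, Gm12250, Zbp1, H2-Eb1, Zc3h12a and Nudt5. In the colon alone 2 probe sets (0.0102%) passed an adjusted p of 0.05 and in the ileum alone 105 (0.536%), of which 1 and 36 were members. Demanding an adjusted p under 0.05 in each tissue left 0 probe sets (0.00%) in limma, while 363 (1.85%) had an unadjusted p under 0.05 in both tissues and the same sign, 166 higher (0.848%) and 197 lower (1.01%). Of the members, 79 met that unadjusted level in both tissues, 29 in the ileum alone and 6 in the colon alone, which describes them only, since the same arrays chose them.

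The members that fell included Cldn4, Nectin1 and Elf3, which are known from epithelia. Cldn4, a claudin of the tight junction, was at 10.13, 10.65, 10.21 and 10.11 in the colons without antibiotic and at 9.05, 9.04 and 8.86 under vancomycin. In the ileum it was at 12.95, 13.30 and 13.51 without and at 10.75, 12.23 and 12.50 with the antibiotic, so the groups did not overlap in either tissue. Its change was -1.29 ± 0.32 in the colon and -1.43 ± 0.34 in the ileum, with a mean of -1.36 ± 0.23 (adjusted p = 0.0221). Nectin1, an adhesion molecule that works beside the adherens junction, had a mean change of -0.52 ± 0.11, with -0.88 ± 0.15 in the colon and -0.17 ± 0.16 in the ileum. These were the 2 of 17 measured tight junction and nectin genes that passed, and the median mean change of the 17 was -0.18. That median was -0.10 without vancomycin colon replicate 13 and moved by over 1.5 times also without vancomycin ileum replicate 11. Elf3, an ETS transcription factor of epithelia, fell by 0.61 in the colon and by 1.08 in the ileum, from 11.99 to 12.53 without antibiotic to 11.18 to 11.98 with it in the colon, and from 11.65 to 12.04 to 10.60 to 10.89 in the ileum.

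Bcl3, an atypical inhibitor of kappa B that acts in the nucleus with NF-kappaB subunits, was at 9.56, 9.55, 9.12 and 9.34 in colons without and at 8.35, 7.92 and 8.92 in colons with vancomycin. In the ileum the values were 10.19, 9.57 and 10.21 against 8.51, 9.02 and 9.00. Every vancomycin array was below every array without antibiotic in its tissue, and the mean change was -1.07 ± 0.17 (adjusted p = 0.0168). N4bp1, which restrains NF-kappaB signalling, changed by -0.68 ± 0.18 and -0.77 ± 0.19 in colon and ileum. Cgas, the cytosolic DNA sensor, changed by -0.68 ± 0.14 and -0.59 ± 0.15, and its levels of 6.84 to 7.19 in vancomycin colons lay below the 7.54 to 7.97 of the other colons. In a different pathway, Il13ra1, a receptor chain for interleukin 13, changed by -0.65 ± 0.20 and -0.78 ± 0.22. Zc3h12a, an endonuclease that degrades inflammatory mRNAs, differed from these: its change was -0.02 ± 0.21 in the colon and -1.89 ± 0.22 in the ileum, a difference that passed its own test (adjusted p = 0.0257).

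Nfil3, a basic leucine zipper repressor that couples the clock and the microbiota to epithelial lipid uptake, was at 8.96, 8.13, 8.71 and 8.61 in colons without antibiotic and at 8.20, 7.39 and 7.36 with it. Ileal levels were 10.58, 10.17 and 10.05 against 9.21, 8.86 and 9.17. The groups overlapped in the colon, where vancomycin replicate 11 lay above the lowest control, and not in the ileum. The mean change was -1.07 ± 0.17 (adjusted p = 0.0168), and Nfil3 was the only one of 17 measured clock genes that passed. The 17 had a median mean change of 0.08, which was 0.13 without vancomycin colon replicate 11, 0.04 without vancomycin ileum replicate 11, and moved by over 1.5 times also without replicate 5 of the colons without antibiotic. That median covers changes in both directions. At an unadjusted p under 0.05 with the same sign, 6 of the 17 were higher and 3 lower, against 8.54% and 8.65% of all probe sets. Cipc, an inhibitor of the CLOCK protein that was not on that list, rose by 0.53 ± 0.15 in the colon and by 0.52 ± 0.16 in the ileum, from 13.47 to 13.82 up to 14.01 to 14.33 and from 12.27 to 12.65 up to 12.88 to 13.16. The hour of tissue collection is not given in the labels, and its part in these values was not tested.

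**Figure D2:**
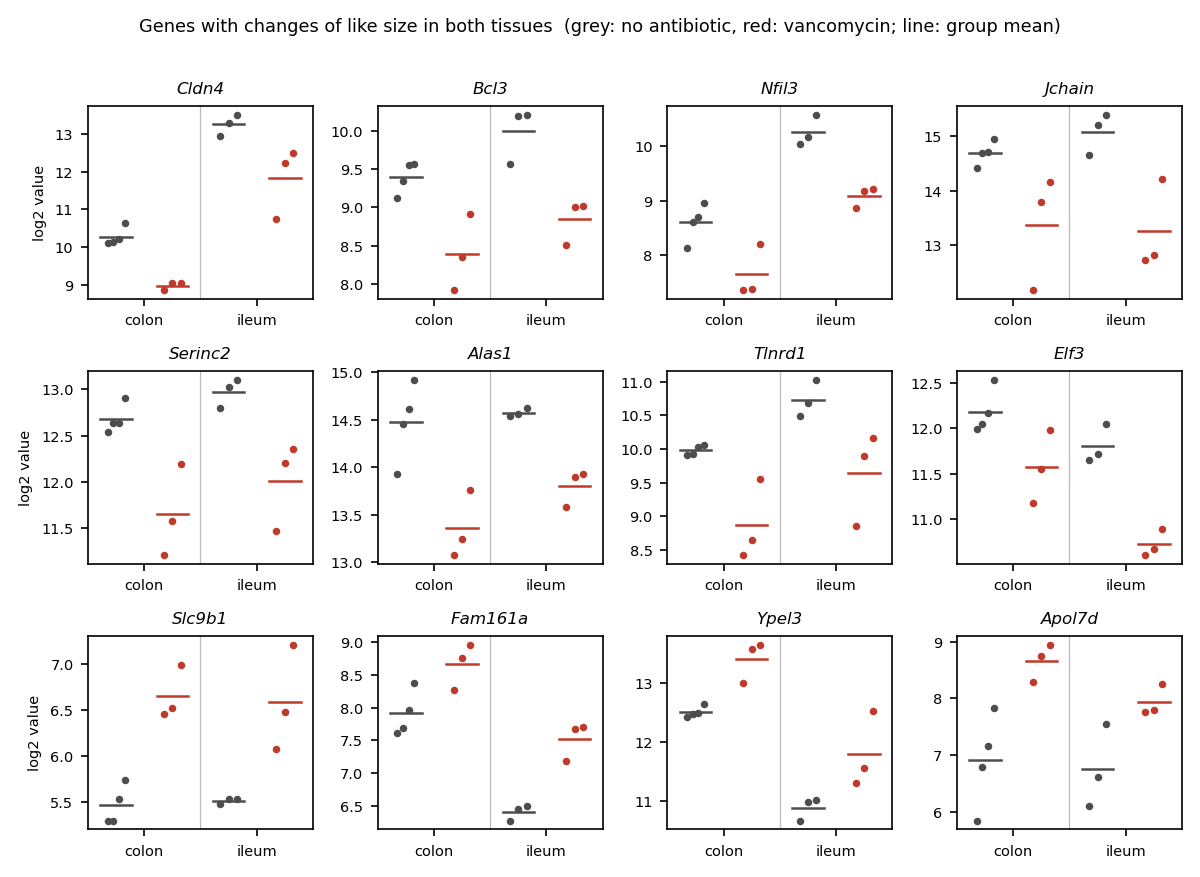
Deposited log2 values of 12 members in each array, in colon and ileum, without antibiotic (grey) and with vancomycin (red), with lines at the group means. Cldn4, Bcl3, Nfil3, Jchain, Serinc2, Alas1, Tlnrd1 and Elf3 sit lower under vancomycin in both tissues, and Slc9b1, Fam161a, Ypel3 and Apol7d sit higher.

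Jchain and Bhlha15, further falls, are known from plasma cells. Jchain, which joins IgA and IgM into polymers, was at 14.70, 14.71, 14.42 and 14.96 in colons without and at 14.17, 13.79 and 12.18 in colons with vancomycin. The ileal values were 14.66, 15.40 and 15.21 against 14.22, 12.74 and 12.82. All vancomycin arrays were below all others of their tissue, replicate 11 by the least in both tissues, and the mean change was -1.57 ± 0.31 (adjusted p = 0.0435). Bhlha15, a transcription factor of secretory cells that plasma cells also use, changed by -0.93 ± 0.23 in the colon and -0.64 ± 0.24 in the ileum. Jchain was the 1 of 11 measured plasma cell genes that passed. In both tissues 9 of the 11 were lower, against 5205 of all 19572 probe sets. The median mean change of the 11 was -0.52. Tnfrsf17, the plasma cell survival receptor BCMA, had a mean change of -0.52 with an adjusted p of 0.0834. The mean level of the 11 genes was 8.67 to 9.07 in colons without and 8.11 to 8.58 in colons with the antibiotic, and 9.05 to 9.14 against 8.36 to 8.87 in the ileum. Whether the plasma cell share of the tissue moved with Jchain was not tested.

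Sec61b, Srp19 and Sec23ip are known from the early secretory pathway and were named for that role after their values were seen. Sec61b, a subunit of the channel through which proteins enter the endoplasmic reticulum, changed by -0.82 ± 0.18 in the colon and -0.67 ± 0.20 in the ileum. Srp19, of the signal recognition particle, changed by -0.67 ± 0.15 and -0.39 ± 0.16. Sec23ip, which works at the sites where cargo leaves that compartment, changed by -0.82 ± 0.19 and -0.56 ± 0.21. For all 3 the treatments did not overlap in either tissue, which held for 70 of the 114 members. With the same sign it held for 2.02% of all probe sets. Of 17 measured genes of the unfolded protein response, 0 passed in limma. In both tissues 12 were lower, against 5205 of all 19572 probe sets. With unadjusted p-values under 0.05 in both, 4 were lower, against 1.01% of all probe sets. The chaperones Dnajb11 (-0.79), Dnajc3 (-0.48) and Sdf2l1 (-0.59) had the smallest p-values of that list, with adjusted p-values of 0.0709, 0.0723 and 0.0575. The cytosolic chaperone gene Dnajb1 was a member, with -0.39 ± 0.13 and -0.53 ± 0.14.

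Several members belong to metabolism. Alas1, the rate-limiting enzyme of heme synthesis, was at 14.92, 13.93, 14.61 and 14.45 in colons without and at 13.76, 13.24 and 13.07 in colons with vancomycin. The ileal arrays read 14.62, 14.54 and 14.56 against 13.58, 13.93 and 13.90. Neither tissue showed overlap, and the mean change was -0.95 ± 0.16 (adjusted p = 0.0189). Srm, spermidine synthase, fell by 1.03 in the colon, from 10.49 to 10.71 down to 9.26 to 9.82, and by 0.36 in the ileum, from 9.92 to 10.05 down to 9.37 to 9.78 (adjusted p of the mean 0.0168). It was the 1 of 13 measured polyamine and one-carbon genes that passed, and the median of the 13 was -0.10. That median was -0.03 without vancomycin ileum replicate 14 and moved by over 1.5 times also without replicate 13. Dhrs9, a dehydrogenase that acts on retinol and steroids, had a mean change of -1.44 ± 0.28, with overlap in the colon. Car1, the carbonic anhydrase of colonocytes, changed by -0.90 ± 0.27 in the colon, from 16.99 to 17.42 down to 16.05 to 16.52, and by -1.24 ± 0.29 in the ileum, where its level was only 6.40 to 8.38.

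Serinc2, a membrane protein of the serine incorporator family, was at 12.54 to 12.90 in colons without and 11.21 to 12.19 in colons with vancomycin, and at 12.80 to 13.10 against 11.47 to 12.36 in the ileum. Its changes of -1.02 ± 0.24 and -0.96 ± 0.25 were nearly equal. Tlnrd1, an actin-bundling protein, likewise changed by -1.11 ± 0.30 and -1.09 ± 0.32. Pom121 encodes a nuclear pore membrane protein and changed by -0.90 ± 0.17 and -0.75 ± 0.18. In the colon, Kcnn4, a calcium-activated potassium channel, changed by -1.22 ± 0.26, and in the ileum by -0.69 ± 0.28 with overlapping groups. Lgals9, galectin-9, changed by -0.93 ± 0.16 in the colon and by -0.41 ± 0.17 in the ileum. Fam162b gave the least even change with a larger fall in the colon, at -0.95 ± 0.12 against -0.10 ± 0.13, and the test of that difference gave an adjusted p of 0.110.

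Members with a role in cell division were Bub1b, a kinase of the spindle checkpoint, Cks1b and Cks2, the small subunits of cyclin-dependent kinases, and Cdca4. Bub1b was at 8.22 to 8.67 in colons without and at 7.34 to 7.82 in colons with vancomycin, and at 7.98 to 8.49 against 7.37 to 7.69 in the ileum. Cks1b changed by -1.10 ± 0.23 and -0.59 ± 0.25, and Cks2 by -0.61 ± 0.16 and -0.55 ± 0.17, each without overlap in either tissue. On the separate list of 17 measured proliferation and DNA replication genes, 0 passed in limma, with 7 lower at an unadjusted p under 0.05 and the same sign, against 8.65% of all probe sets. All 17 had a lower mean change, against 8902 of all 19572 probe sets, and 13 were lower in both tissues, against 5205. The medians were -0.19 in the colon and -0.43 in the ileum. The median mean change was -0.29, which was -0.17 without vancomycin ileum replicate 14 and -0.43 without vancomycin colon replicate 13. Of the 17, Bub1 had a mean change of -0.87 and an adjusted p of 0.0513, the smallest of the list. Pop7 and Rpp38, subunits of ribonuclease P, and Gemin6 of the SMN complex, named for their roles after their values were seen, fell by 0.57 to 0.67 in their mean change. The list of 20 measured RNA splicing and processing genes, which holds none of them, had 14 higher and 6 lower mean changes. Over all 19572 probe sets, 10669 were higher and 8902 lower. The list's median was 0.06, and 0.01 to 0.10 without 1 array. Of the 20 genes, 0 passed in limma. At an unadjusted p under 0.05 with the same sign, 6 were higher and 1 lower, against 8.54% and 8.65% of all probe sets.

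The members with the largest mean changes fell mainly in the ileum, and several are known targets of interferon gamma. Igtp, Irgm2 and Gm12250 (also called Irgb10) encode immunity-related GTPases, a family that acts in defence against intracellular microbes, and lie next to each other on chromosome 11. Gm12250 was singled out after its values were seen. The 250 bases before their start sites are shown, from RefSeq on GRCm38.p6, because the 3 genes moved together and each sequence holds the core of an interferon-stimulated response element. The core searched was GAAA, any 2 bases and GAAA again, on both strands, and capitals mark the matches. The intervals are chr11:58199306-58199555 for Igtp, chr11:58214727-58214976 for Irgm2 and chr11:58183593-58183842 for Gm12250, all on the plus strand.
Igtp: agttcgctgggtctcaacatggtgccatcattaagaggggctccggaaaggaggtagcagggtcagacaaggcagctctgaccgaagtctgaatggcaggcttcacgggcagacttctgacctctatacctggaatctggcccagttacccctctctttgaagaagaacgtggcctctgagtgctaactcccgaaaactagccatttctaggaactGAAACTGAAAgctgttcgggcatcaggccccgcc
Irgm2: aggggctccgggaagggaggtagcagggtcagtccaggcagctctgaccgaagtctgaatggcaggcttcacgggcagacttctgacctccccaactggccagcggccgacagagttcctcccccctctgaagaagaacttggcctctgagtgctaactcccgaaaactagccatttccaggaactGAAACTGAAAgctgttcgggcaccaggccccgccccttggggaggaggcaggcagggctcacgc
Gm12250: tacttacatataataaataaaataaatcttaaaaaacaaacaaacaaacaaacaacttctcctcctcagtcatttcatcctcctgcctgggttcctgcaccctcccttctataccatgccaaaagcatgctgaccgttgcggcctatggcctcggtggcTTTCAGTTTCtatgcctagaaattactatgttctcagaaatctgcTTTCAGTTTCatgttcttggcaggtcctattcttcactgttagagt

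The match begins 34 bases before the start site of Igtp, 64 bases before that of Irgm2, and 91 and 46 bases before that of Gm12250. Igtp and Irgm2 hold the same letters, GAAACTGAAA, and Gm12250 holds TTTCAGTTTC, the reverse complement of GAAACTGAAA, at both places. Each of the 3 also holds TTCNNNGAA, the core of a STAT site, which overlaps the other motif in none of them and in 12 of the 476 promoters with the first. Over the 15691 genes with a promoter in the table, 3.03% hold the first core and 6.77% hold TTCNNNGAA. Of the 69 lower members with a promoter, 9 (13%) hold the first and 9 (13%) the second. Of the 25 higher members with one, 2 (8.0%) hold the first and 1 (4.0%) the second. The 2 with the first, Btbd35f22 and Btbd35f28, belong to the same gene family. The sequences of Igtp and Irgm2 shown above also share long stretches, so these shares may count copies of a sequence as separate genes. CACGTG, the E-box, stands in 6.88% of all promoters, in 6 of the lower and in 2 of the higher members. These are letter matches and no measured binding.

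Igtp was at 7.46, 7.19, 6.82 and 7.28 in colons without antibiotic and at 6.51, 6.26 and 7.15 with it. In the ileum it was at 12.74, 10.47 and 12.03 without and at 7.85, 7.10 and 8.0 with vancomycin, so that under vancomycin its level there came near that of the colon. The groups overlapped in the colon and not in the ileum. The change was -0.55 ± 0.41 and -4.10 ± 0.44, with a mean of -2.32 ± 0.30 (adjusted p = 0.00772), and the tissue difference passed its test (adjusted p = 0.0368). Irgm2 changed by -0.58 ± 0.25 in the colon, from 7.98 to 8.42 down to 7.47 to 7.88, and by -2.21 ± 0.27 in the ileum, from 9.84 to 10.88 down to 7.76 to 8.77, without overlap in either. Gm12250 changed by -0.39 ± 0.35 and -3.24 ± 0.37. Zbp1, a sensor of left-handed nucleic acids that can start necroptosis, changed by -0.54 ± 0.28 and -2.89 ± 0.30, and its levels of 7.44 to 8.17 in vancomycin ilea were below all 3 of the others, which reached 11.33.

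Igtp and Irgm2 were the 2 of 16 measured interferon gamma targets that passed with the same sign, and the median mean change of the 16 was -0.39, from 0.07 in the colon and -1.08 in the ileum. Without vancomycin ileum replicate 11 it was -0.55, and without replicate 1 of the ilea without antibiotic it was -0.29. Of the 16 genes, 7 were lower in both tissues and 0 higher in both. The same sign held for 60.1% of all probe sets. Zbp1 was the 1 of 22 genes of type I and III interferon responses that passed, but there the medians were alike, at -0.45 in the colon and -0.42 in the ileum, and 15 of the 22 were lower in both. Over all probe sets, 5205 of 19572 were lower in both tissues. The mean level of the 22 genes was 8.66 to 9.02 in ilea without antibiotic. In vancomycin ileum replicates 11, 13 and 14 it was 7.89, 7.98 and 8.84, so replicate 14 lay within the range without antibiotic. The median mean change of the 22 was -0.57 without vancomycin ileum replicate 14 and -0.34 without vancomycin ileum replicate 13. Ifit1 (-1.11) and Isg15 (-0.99), the next by p on that list, had adjusted p-values of 0.0693 and 0.0912. Plekhn1 was a member with a like pattern to Irgm2, with -0.52 ± 0.23 in the colon and -2.03 ± 0.24 in the ileum.

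**Figure D3:**
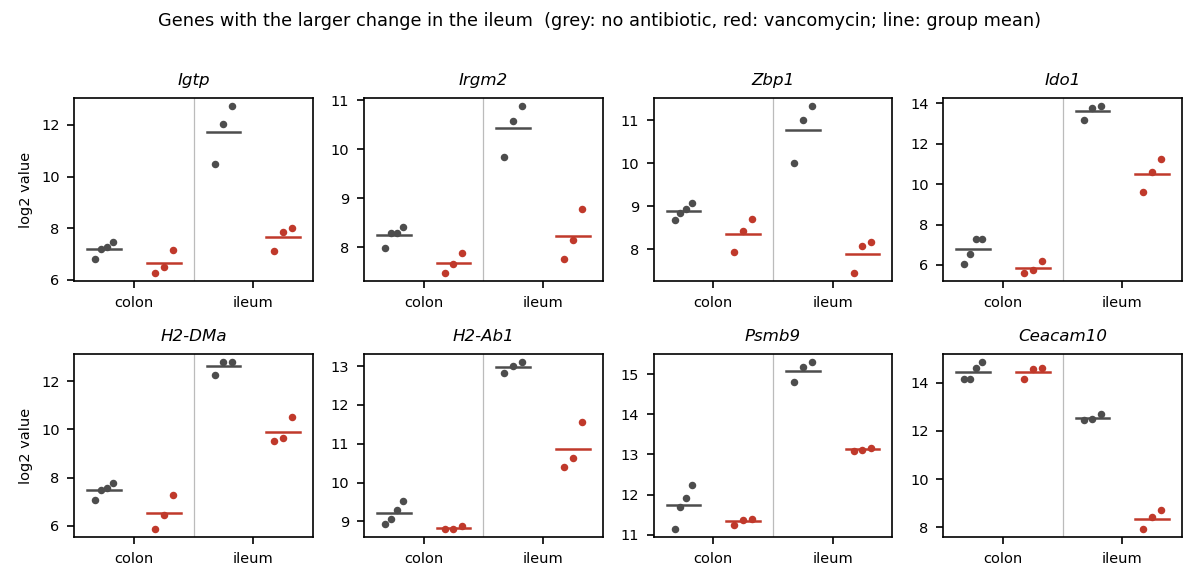
Deposited log2 values of 8 members with the larger change in the ileum, per array, without antibiotic (grey) and with vancomycin (red), with lines at the group means. In the ileum the red points lie below all grey points for each gene, while in the colon the groups are close or overlap.

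Antigen presentation gave 7 members. H2-DMa, which helps to load peptides on MHC class II, was at 7.56, 7.50, 7.09 and 7.78 in colons without and at 7.28, 5.87 and 6.46 with vancomycin. Its ileal values were 12.80, 12.26 and 12.78 against 10.50, 9.64 and 9.50. Its mean change was -1.84 ± 0.23 (adjusted p = 0.00772), and it was the class II gene with the larger fall in the colon, at -0.95 ± 0.31, against -0.38 ± 0.23 for H2-Ab1 and -0.11 ± 0.29 for H2-Eb1. In the ileum H2-Ab1 went from 12.82 to 13.11 down to 10.39 to 11.56, and H2-Eb1 from 11.47 to 12.07 down to 8.25 to 9.73. These 3 were among 11 measured class II genes, whose median mean change was -0.69, and -0.98 without vancomycin ileum replicate 11, the array with the highest B cell level, and -0.44 without vancomycin ileum replicate 14. The median change of the 11 was 0.03 in the colon and -1.49 in the ileum. In both tissues 4 of the 11 were lower and 2 higher, against 5205 and 6567 of all 19572 probe sets. Replicate 11 had the highest ileal value of H2-DMa, H2-Ab1 and H2-Eb1 under vancomycin, and the part of B cells in them was not tested.

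The catalytic subunits that turn the proteasome into the immunoproteasome, Psmb8, Psmb9 and Psmb10, were the 3 of 15 measured MHC class I genes that passed with the same sign. Psmb9 was at 12.24, 11.91, 11.14 and 11.70 in colons without and at 11.40, 11.23 and 11.36 with vancomycin, with overlap. In the ileum it was at 14.80 to 15.31 without and at 13.09 to 13.17 with it, a gap far wider than the spread in either group. The mean changes were -1.0 ± 0.18 for Psmb8, -1.19 ± 0.15 for Psmb9 and -0.57 ± 0.12 for Psmb10. All 15 genes had a lower mean change, against 8902 of all 19572 probe sets, and 10 were lower in both tissues, against 5205. The list's median was -0.06 in the colon and -0.76 in the ileum. H2-Q10, a class I gene outside that list, changed by -0.42 ± 0.21 and -1.40 ± 0.22 without overlap. Its sequence is close to that of other class I genes, so its probes could share signal with them.

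Ido1, which starts the breakdown of tryptophan to kynurenine, was at 7.30, 6.06, 6.53 and 7.29 in colons without and at 6.21, 5.60 and 5.77 with vancomycin. In the ileum it was at 13.16 to 13.87 against 9.61 to 11.23, and the mean change was -2.02 ± 0.27 (adjusted p = 0.00772). Cd274, the checkpoint ligand PD-L1, changed by -0.23 ± 0.33 and -2.30 ± 0.35. Tnfsf13b, the B cell survival factor BAFF, changed by -0.36 ± 0.19 and -1.01 ± 0.20 without overlap in either tissue. Sprr1a, a small proline-rich protein, changed by -0.80 ± 0.25 and -0.95 ± 0.26 and was, with Ido1, the 2 of 17 genes of the epithelial response to bacteria that passed with the same sign, beside 2 that passed with opposite signs. That list's median was 0.17 in the colon and -0.93 in the ileum.

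Gzma, Ccl5 and Il2rb, genes of cytotoxic lymphocytes, passed with the same sign as 3 of 18 measured, all with an unadjusted p under 0.05 in the ileum alone. Another 4 of the 18, Gzmb, Cd7, Nkg7 and Cd244a, passed with opposite signs, higher in the colon and lower in the ileum, and only 4 of the 18 had the same sign in both tissues. Gzma, a granzyme, was at 13.43, 13.43 and 13.22 in ilea without and at 8.72, 9.34 and 11.67 with vancomycin, and its colon levels of 5.43 to 6.63 and 5.67 to 5.79 overlapped. Ccl5, a chemokine, changed by -0.04 ± 0.12 in the colon and by -0.95 ± 0.12 in the ileum. For the 18 genes the median was 0.10 in the colon and -1.12 in the ileum, and their mean level in the ileum was 8.39 to 8.52 without and 7.12 to 7.69 with the antibiotic. The colon changes of the 3 ran from -0.46 to -0.04, and each had an unadjusted p above 0.05 there. Ceacam10, a carcinoembryonic antigen family gene, is the extreme case, with -0.004 ± 0.22 in the colon and -4.20 ± 0.23 in the ileum, where it went from 12.47 to 12.69 down to 7.92 to 8.71. Just beyond the sign rule lay Tap1, the peptide transporter, at 0.035 and -2.23, and H2-Aa, a class II chain, at 0.04 and -1.67.

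In the mean of both tissues the 29 rises were smaller than the falls, with a median of 0.63 against -0.74. In the colon alone the median rise, 0.68, was larger in size than the median fall, -0.59. Of the rises, 2 exceeded 1 in their mean change, and none passed the test of the tissue difference. Their median level was 7.51, at the 43.5th percentile of all probe sets, against 9.80 and the 68.0th percentile for the falls, and 16 of the 29 lay below the median level of all probe sets. In 20 of them the treatments overlapped in neither tissue, as in 50 of the 85 falls. Such separation with the same sign held for 2.02% of all probe sets and, whatever the signs, for 2.43%. The separation only describes the members, since the same arrays chose them.

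Slc9b1, of the sodium and proton exchanger family, was at 5.30, 5.30, 5.54 and 5.74 in colons without and at 6.46, 6.53 and 6.99 with vancomycin. Ileal values were 5.53, 5.48 and 5.53 against 6.08, 7.21 and 6.48. All vancomycin arrays were higher in both tissues, and the mean change was 1.13 ± 0.17 (adjusted p = 0.0123). Apol7d, an apolipoprotein L relative, had the largest rise, at 1.75 ± 0.40 in the colon and 1.19 ± 0.43 in the ileum. Its values spread widely, from 5.84 to 7.82 in colons without antibiotic against 8.29 to 8.94, and from 6.10 to 7.55 in ilea without against 7.76 to 8.26. Fam161a, a ciliary protein, changed by 0.75 ± 0.21 and 1.11 ± 0.22, and Ttll6, which adds glutamate chains to tubulin, by 0.67 ± 0.22 and 0.91 ± 0.23.

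Gpam, which catalyses the first step of triglyceride synthesis, rose by 0.46 ± 0.19 in the colon, from 10.04 to 10.36 up to 10.46 to 10.95, and by 0.96 ± 0.21 in the ileum, from 9.47 to 9.68 up to 10.19 to 11.05. Acox2, a peroxisomal oxidase of branched fatty acids and bile acid precursors, rose by 0.64 ± 0.15 and 0.60 ± 0.16 without overlap, at a lower mean level of 6.94. Insr, the insulin receptor, changed by 0.29 ± 0.15 and 0.80 ± 0.16, and its colon values of 13.21 to 13.73 and 13.50 to 13.88 overlapped. Akr1c19, an aldo-keto reductase, changed by 0.42 ± 0.21 and 1.28 ± 0.22. Crebrf, which regulates CREB3 factors, rose by 0.68 ± 0.17 and 0.58 ± 0.18, and Ypel3, a growth-inhibiting gene of the yippee family, by 0.90 ± 0.25 and 0.91 ± 0.26.

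The other rises include genes of sensory and testis families at low levels. Vmn1r101 and Vmn2r124, vomeronasal receptors, rose by 0.72 ± 0.15 and 0.59 ± 0.10 in their mean change, at mean levels of 6.83 and 7.44. Tas2r131, a bitter taste receptor, rose by 0.47 ± 0.10 at 5.36, and Btbd35f28 by 0.74 ± 0.12 at 7.28. These families hold near-identical copies, so their probes may not tell the members apart. Clec4b2, a C-type lectin of myeloid cells, was at 5.92 to 6.46 in colons without and 6.66 to 7.30 with vancomycin, and at 6.30 to 6.53 against 7.04 to 7.42 in the ileum. Scgb3a2, a secretoglobin, rose by 0.74 ± 0.16 at the low level of 5.71 and passed narrowly (adjusted p = 0.0499). Zfp867, a zinc finger gene, rose by 0.80 ± 0.14 and 0.64 ± 0.15.

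**Figure D4:**
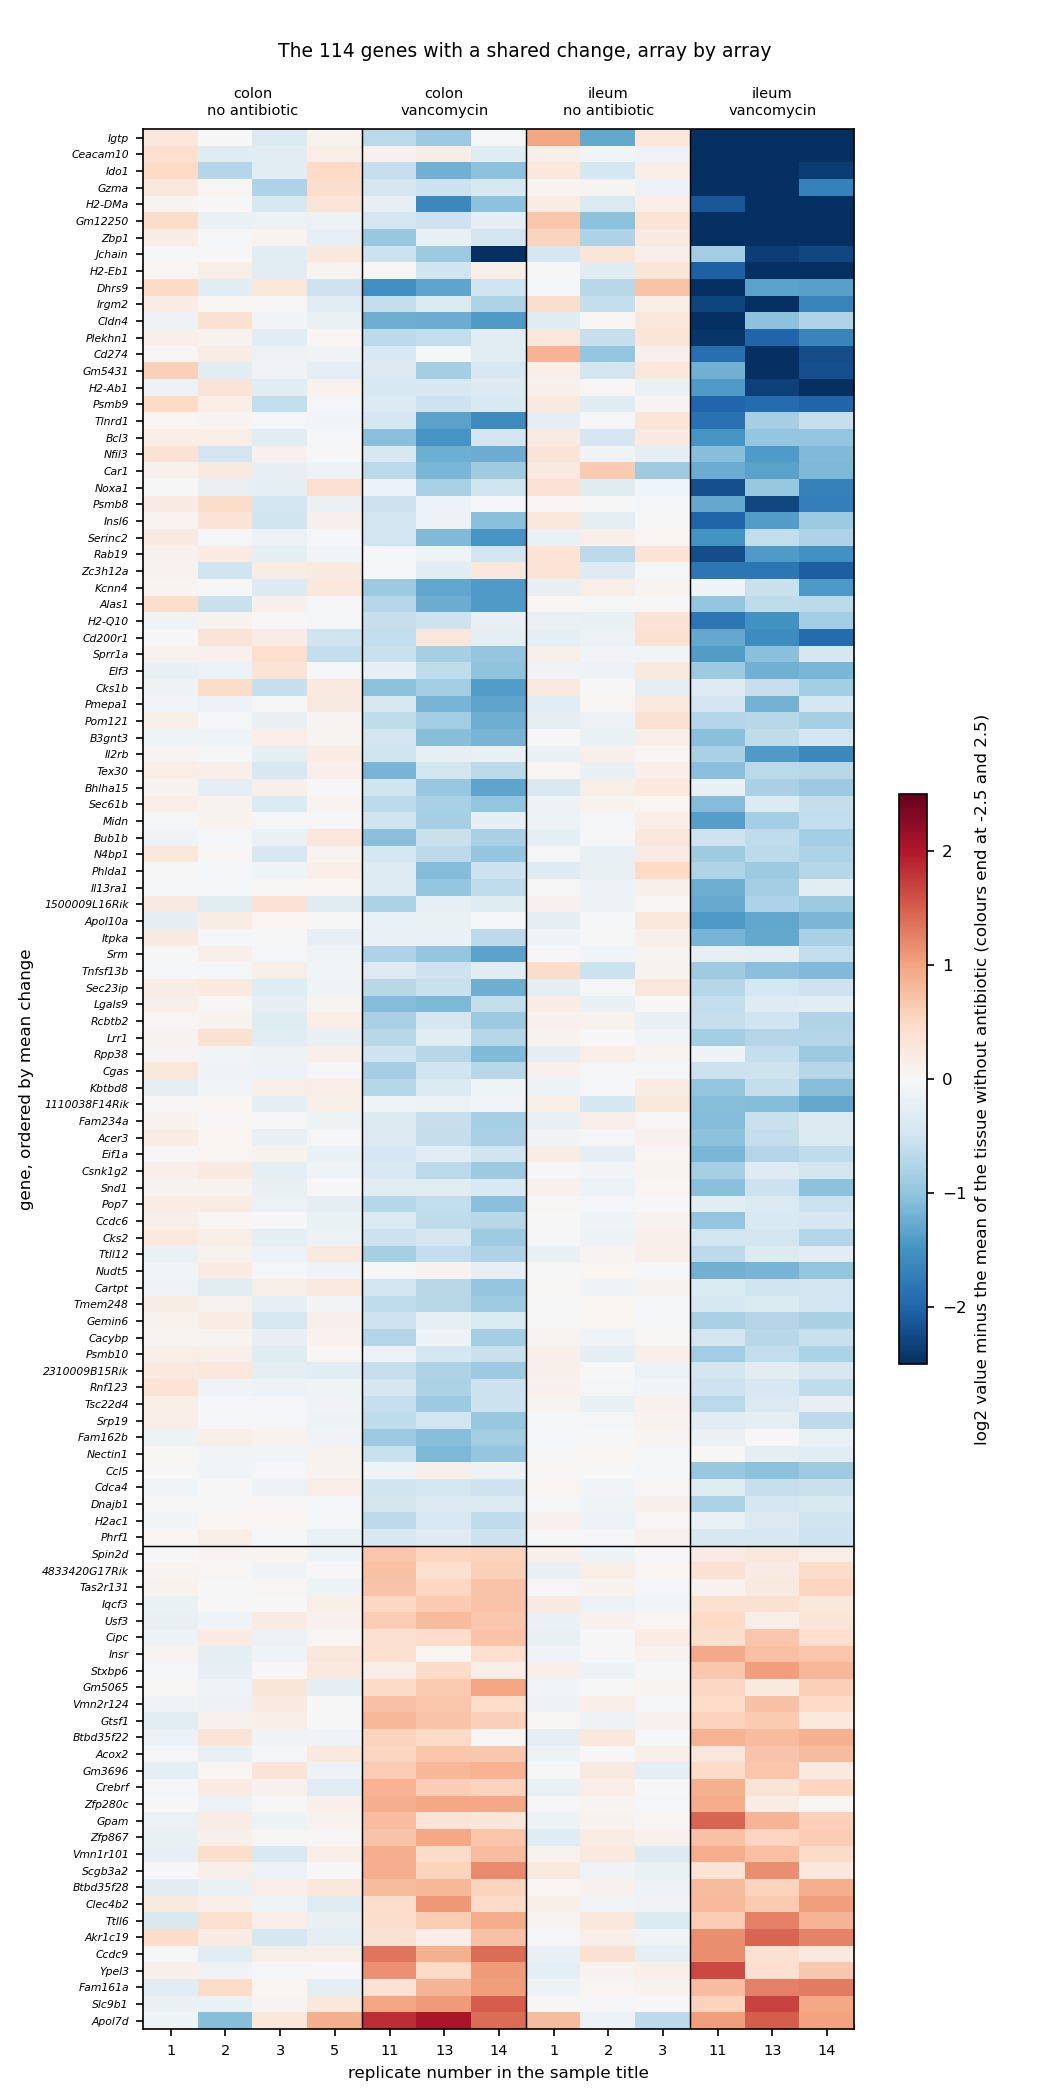
All 114 members (vertical axis, ordered by mean change) in each of the 13 arrays (horizontal axis, by replicate number), as the log2 value minus the mean of that tissue without antibiotic, from blue (lower) to red (higher). The deepest blue is in the vancomycin ilea at the top. Some vancomycin colons of falls lie on the red side. These are replicates 11 and 13 for Ceacam10, 11 and 14 for H2-Eb1, and 14 for Zc3h12a, among others.

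**Figure D5:**
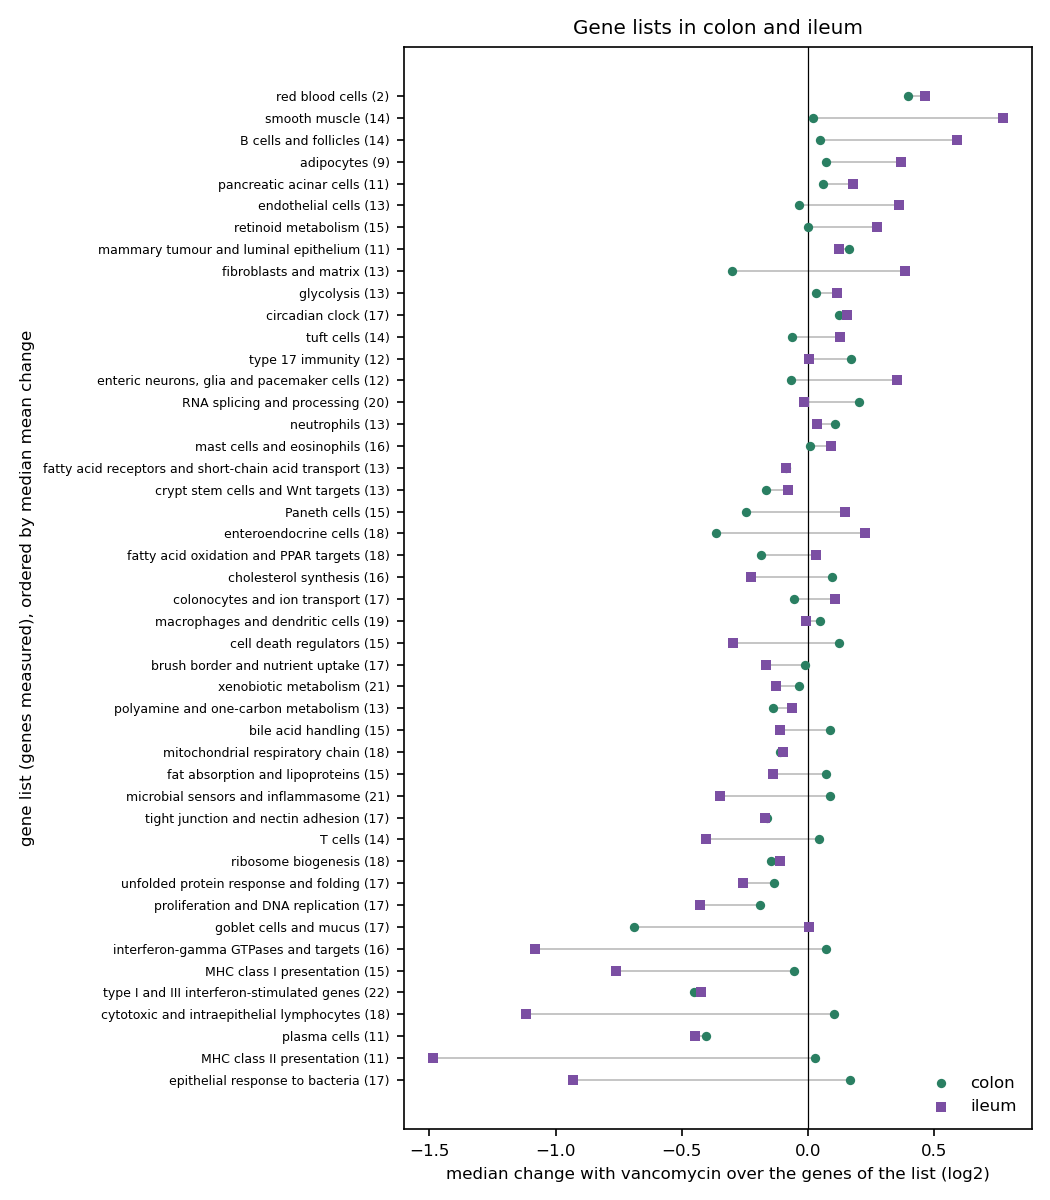
Median log2 change with vancomycin in colon (circles) and ileum (squares) for each of 46 gene lists, ordered by the median mean change, with the number of genes measured in brackets. Interferon-stimulated and plasma cell genes have both symbols near -0.4, whereas MHC class II and cytotoxic genes lie near 0 in the colon and under -1 in the ileum.

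The lists placed the members among related genes. Of 46 lists, 11 held a member, and all 20 members on lists were falls. The lists of smooth muscle, fibroblasts and matrix, endothelial cells, enteric neurons and glia, adipocytes, and B cells and follicles held 0 members that passed in limma. All 14 smooth muscle genes had a higher mean change, against 10669 of all 19572 probe sets. At an unadjusted p under 0.05 with the same sign, 2 of the 14 were higher, against 8.54% of all probe sets. The median of the 14 was 0.39, and 0.17 without vancomycin ileum replicate 11. All 14 B cell genes also had a higher mean change, with 0 at that level, a median of 0.27, which was -0.14 without that array and 0.58 without vancomycin ileum replicate 14, and moved by over 1.5 times also without vancomycin ileum replicate 13 or colon replicate 14. The mean smooth muscle level was 13.40 to 14.37 and 13.55 to 14.44 in colons without and with vancomycin, and 12.85 to 13.10 and 13.11 to 14.49 in the ilea. Of 17 goblet cell genes 0 passed, and the median was -0.69 in the colon and 0.003 in the ileum, beside 0.02 in both tissues over all probe sets. The part of such shifts in the members' changes was not tested.

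The count of members depended on single arrays. Without replicate 1, 2, 3 or 5 of the colons without antibiotic it was 39, 52, 264 or 53, without vancomycin colon replicate 14 it was 24, without replicate 1, 2 or 3 of the ilea without antibiotic it was 22, 52 or 17, and without vancomycin ileum replicate 11 or 13 it was 194 or 41. It was 112 to 161 without each of the other 3 arrays. In none of these did a member change direction in its mean change, and 0 members moved by over 1.5 times. A kept direction was likely beforehand, since the same arrays chose the members by a low p. The sign in the colon was less sure. Without 1 array, 6 members with colon changes near 0 had opposite signs in the tissues in at least 1 of 7 settings, which were Ccl5, Cd200r1, Ceacam10, H2-Eb1, Nudt5 and Zc3h12a. The colon change of Ceacam10 was 0.14 without replicate 1 of the colons without antibiotic, 0.05 without replicate 5 and 0.15 without vancomycin colon replicate 14. Past the threshold whichever array was left out were Igtp, Ido1, H2-DMa, Gm12250, Zbp1, Irgm2, Plekhn1, H2-Ab1, Psmb9, Pom121 and Apol10a among the falls and Slc9b1 and Zfp867 among the rises. Bcl3 lost its call without replicate 1 or 3 of the ilea without antibiotic, Nfil3 without the first of these or vancomycin colon replicate 14, and Cldn4 without that colon or replicate 2 or 3 of those ilea. Jchain lost it without 9 of the 13 arrays. The tissue difference among members passed for 1 to 17 genes without 1 array, and the 363 genes with both unadjusted p-values under 0.05 became 199 to 469. The least sure members have adjusted p-values just under 0.05, among them Phlda1 at 0.0499 and Cacybp, and the nearest genes outside are Slc25a36 at 0.0505 and, among several at 0.0513, Bub1 and Olfr121.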

How the data were processed

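Biotin-labelled RNA of each of the 13 samples was hybridised to an Affymetrix mouse array read in 1 colour, per the labels' protocols. The authors deposited log2 values, for which the submitters' processing notes name RMA and version 1.4.1.46 of Affymetrix Expression Console. RMA sets a background, equalises the arrays by quantiles and summarises the probes of each probe set, so that it pulls low values together and an overall shift between arrays cannot be seen. The values ran from 3.01 to 18.25, and differences among the 437 probe sets above 16 may be compressed. Of 28846 probe sets, 19572 had exactly 1 gene symbol and 9274 had none. The columns without a sample numbered 0.

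From these values, limma 3.58.1 in R 4.3.3 fitted 1 mean per tissue and treatment over all 13 arrays, with 9 residual degrees of freedom and an empirical Bayes variance. The contrasts were the change in each tissue, their mean and their difference, with Benjamini-Hochberg adjustment across all 19572 probe sets at 0.05. The change in both tissues was tested by the larger of the 2 p-values, set to 1 where signs differed. On simulated data with 200 changed genes among 19572, the mean change test recovered 35.8% of changes of 0.5, 88.1% of changes of 1 and 100% of changes of 2, and 9.15% of its calls were false. The simulation gave each changed gene the same change in both tissues and drew independent normal noise for each array. Its rates therefore do not cover genes that change in 1 tissue or arrays that share a mouse. The fit treats the 13 arrays as independent: the labels do not say whether a colon and an ileum of the same number come from 1 mouse, and if they do, the p-values of the mean change leave out what such arrays share.

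The members, the 46 gene lists (693 of 768 entries measured, 7 genes on several lists) and the rule for naming genes were chosen with earlier results of these data known. The rule takes the 12 largest separated changes per direction, the 8 per direction with the smallest larger p, the 4 per direction with a difference between tissues, and 3 genes per list, without predicted genes, of which 8 were members. Other members were named for their known roles after their values were seen. Promoters are RefSeq sequences of GRCm38.p6, 1 per gene, and the alternatives tried were other models, scalings, filters and left-out arrays.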

Additional observations from a re-analysis of the deposited data

Results flagged for a closer look

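Among the 168 genes named by the rule, 5 had an array far from the other 3 in the colon without antibiotic, the only group large enough for Dixon's test, which marks about 1 in 20 groups by chance. Tex30, a member, was at 9.57 in replicate 3 and at 10.09 to 10.13 in the others. Tlr3 was at 13.83 in replicate 1, against 13.43 to 13.45, and Il17a at 6.61 in replicate 3, against 6.12 to 6.17. Cnn1, a smooth muscle gene, was at 15.56 in replicate 2, against 16.37 to 16.49. Csn3, a milk casein, was at 10.28 in replicate 5, against 7.31 to 7.67.

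For 13 named genes the change in the ileum differed from that in the colon by limma's test of the difference. Given as the ileum change minus the colon change, members were Ceacam10 (-4.19), Igtp (-3.55), H2-Eb1 (-2.82) and Zbp1 (-2.355). Genes that are not members, because of their sign or their mean change, were Fgf15 (-4.17), Ubd (-4.11), Gzmb (-3.91), Nos2 (-3.67), Cd7 (-2.96), Tap1 (-2.265), Nkg7 (-1.96), Ly6g6c (1.71) and Tph1 (2.10). Ly6g6c changed by -1.70 in the colon and by 0.003 in the ileum, and Tph1 by -1.32 and 0.79.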

How the results depend on the processing

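The number of genes with a shared change was the least stable value. It was 23 (8 higher, 15 lower) with an additive model, 1163 (578 and 585) with array weights, 182 (64 and 118) with each tissue fitted alone, and 79 with arrays centred on the median, where 19 were higher. With array weights, 709 genes had both unadjusted p-values under 0.05, 191 differed between tissues, and 27 of these were members of that setting. With the replicate number as a replicate block, 58 genes remained (11 higher, 47 lower). Averages of same-numbered arrays, 3 against 3, gave 0 calls (0 higher, 0 lower) in limma, with a smallest adjusted p of 0.0544. At an unadjusted p under 0.05 there were 2696 probe sets. All 114 members were among them, but the same arrays had chosen the members. Whether the numbers pair the samples is not settled: the deviations of same-numbered arrays correlated at -0.02 to 0.08 without antibiotic and at 0.11 to 0.24 with vancomycin, and 4 of 6 colon arrays were closest to the ileum array of their own number. Refitting with an intensity trend, quantile normalization again, no dim probe sets, or 1 probe set per gene gave 87 to 118.

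Leaving out 1 array gave 17 to 264 genes (2 to 86 higher, 15 to 178 lower), 199 to 469 genes with both unadjusted p-values under 0.05, 12 to 84 tissue differences and 1 to 17 of these among members. The arrays that moved the tissue differences by over 1.5 times were replicates 1, 2 and 5 of colon and 1 and 3 of ileum without antibiotic, and colon 13 and 14 and ileum 11 with it. Leaving out both arrays of number 1, 2, 3, 11, 13 or 14 gave 4, 28, 11, 381, 28 and 53 genes, with 0, 5, 0, 138, 5 and 12 higher and 4, 23, 11, 243, 23 and 41 lower. The tissue differences were then 10, 21, 4, 157, 6 and 12, those among members 0, 9, 1, 21, 1 and 1, and genes with both unadjusted p-values under 0.05 were 204 without number 1. Adjusted in both tissues, 0 genes passed in each setting where this was counted. It was not counted for the additive model or for the averages of same-numbered arrays.

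No member reversed its mean change in any of the 29 settings, which was likely beforehand, since the same arrays chose the members. In 17 of the settings 1 to 3 of 6 members no longer had the same sign in both tissues. Among these were Ceacam10 and Zc3h12a with array weights, quantile normalization again and median centring. Past the threshold whichever array was left out were 13 members, whichever number was left out 2 (Zbp1 and Psmb9), and in all settings 0. RMA leaves no per-array depth, and levels were not called detected or absent.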
